A study of Homo sapiens with 18 samples.

Results

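The replication-dependent histone transcripts are the mRNAs of the clustered histone genes, named HIST1H, HIST2H, HIST3H and HIST4H after their cluster and type. The table of SW620 cells, a human colon cancer line, holds 73 such rows among 26485 gene symbols. A row was kept where its level exceeded 1 CPM (the row's counts scaled to 1e6 counts per library) in at least 3 of the 18 libraries, and 7 rows met this rule. HIST1H2BD, HIST1H2BJ, HIST1H2BK and HIST2H2BE encode the core histone H2B, HIST1H2AC and HIST3H2A encode H2A, and HIST1H1C encodes the linker histone H1. No H3 row and no H4 row met the rule. The cells received scramble siRNA or siRNA against Lonp1 (siLonp1), and were grown at 37 °C throughout (Ctrl), exposed to 42 °C during 1 h (HS), or given 1 h of recovery at 37 °C after that exposure (HS+REC). Each of the 6 groups had 3 libraries, described in the study's methods as independent biological replicates. All groups share the same cell line and transfection, and the sources used here do not name which siRNA sequence against Lonp1 was used for RNAseq.

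Histones package DNA, and a cell makes most of them while it copies its genome. The mRNAs of the clustered genes are the known exception among animal mRNAs. They carry no poly(A) tail and end a few bases after a conserved stem-loop, which SLBP binds and which the U7 snRNP (with LSM10, LSM11 and ZNF473) recognises together with a downstream element when the end is cut. Some of these genes can also be transcribed past the stem-loop and end at a poly(A) signal, a form known from differentiated and non-dividing cells. The study's methods give a stranded mRNA kit, which selects RNA with a poly(A) tail, while the sample labels name an mRNA and a total RNA kit together. Under poly(A) selection these rows would mainly count histone RNAs with a tail or an internal run of A, plus what passes without one. These sources do not settle which kit was used, and RNA with a tail was not measured apart from RNA without one.

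The stem-loops and the poly(A) signals of the 7 transcripts are shown because, under poly(A) selection, they set which RNA the libraries could capture. Sequences were read from hg38 with the GENCODE 44 gene models, written 5′ to 3′ on the coding strand. A stem-loop was searched by its consensus within 150 bases after the stop codon, and was found in 7 of 7. In the lines that follow the 16 bases of the stem-loop are in capitals, with 5 bases on either side.
HIST1H2BK: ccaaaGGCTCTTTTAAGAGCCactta
HIST1H2BD: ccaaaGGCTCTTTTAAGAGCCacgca
HIST1H2BJ: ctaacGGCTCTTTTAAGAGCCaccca
HIST2H2BE: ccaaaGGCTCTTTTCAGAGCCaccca
HIST1H2AC: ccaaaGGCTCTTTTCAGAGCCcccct
HIST3H2A: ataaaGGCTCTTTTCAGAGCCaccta
HIST1H1C: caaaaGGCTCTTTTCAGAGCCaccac
The stem was the same in all 7, and the loops fell into 2 forms, one in HIST1H2BK, HIST1H2BD and HIST1H2BJ and the other in HIST2H2BE, HIST1H2AC, HIST3H2A and HIST1H1C. The stem-loop began between 27 bases (HIST1H1C) and 56 bases (HIST2H2BE) after the stop codon.

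For 5 of the 7 genes GENCODE 44 held a transcript that ran more than 30 bases past the stem-loop, and each of the 5 had such a transcript with a poly(A) signal in its last 50 bases. The windows of 30 bases that follow show the signal, AATAAA or its variant ATTAAA, in capitals.
HIST1H2BD: aaagttataattAATAAAatctgcggagaa
HIST1H2BJ: tctgaataaatgAATAAAgtaatattcctc
HIST2H2BE: gctattgttattAATAAAgttaccaattaa
HIST1H2AC: ctggcatgaggtAATAAAaggtaatgcaaa
HIST3H2A: gatttatctgatATTAAAagtatttatgat
The end lay 1729 bases past the stem-loop for HIST2H2BE, in 1 uninterrupted exon. It lay 6424 bases past it for HIST1H2BJ, 12747 for HIST1H2BD and 14432 for HIST1H2AC, each time in a second exon. For HIST3H2A the transcript with the signal was unspliced and ended 390 bases past the stem-loop. HIST1H2BK had no such transcript in GENCODE 44, but its RefSeq gene reaches 8073 bases past the stem-loop. HIST1H1C ended 4 bases after the stem-loop in both annotations. The authors counted on UCSC genes whose release is not given in the sources used here, so it is not known which of these exons their counts include.

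Among the 73 rows, 70 had a recognisable stem-loop, and for 18 of the 70 a GENCODE transcript or the RefSeq gene span ran past it. Of these 18 genes 6 met the CPM rule, and of the 52 genes that end at the stem-loop 1 did, HIST1H1C. By GENCODE transcripts alone 5 of 17 met it, and 2 of the other 53, HIST1H1C and HIST1H2BK. The median of the mean CPM over the 18 libraries was 0.316 for the 18 genes and 0.102 for the 52. A longer GENCODE transcript or RefSeq gene span was found for 9 of 18 H2B genes, 3 of 17 H2A genes, 2 of 14 H3 genes, 4 of 15 H4 genes and 0 of 6 H1 genes. Length of the counted region was not taken out of these levels, and a longer transcript offers more bases to count.

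**Figure D1:**
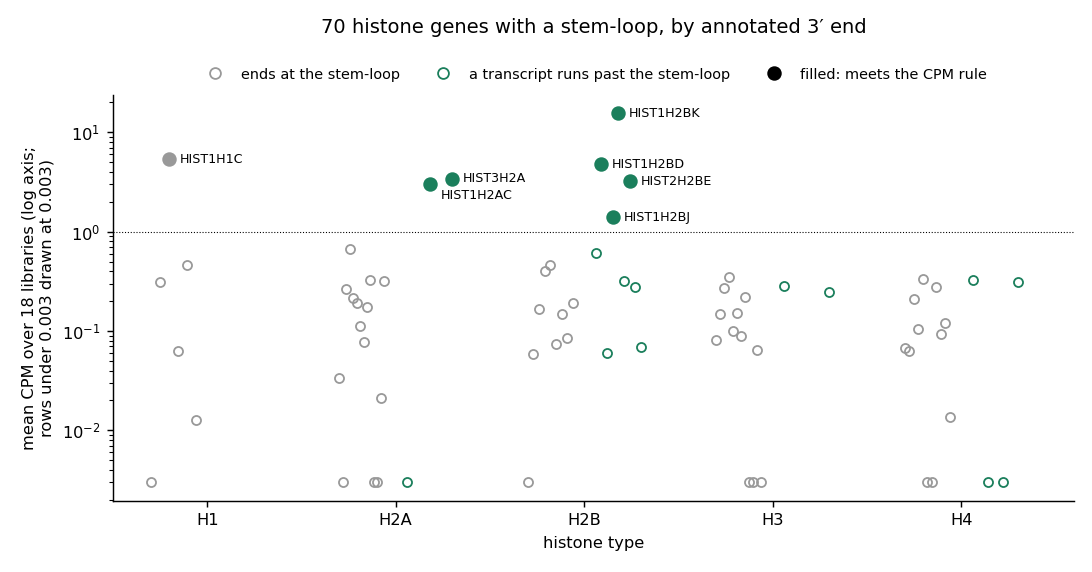
Mean CPM over 18 libraries (log axis) of the 70 histone genes with a stem-loop, by histone type. Green marks genes whose GENCODE transcript or RefSeq gene span runs past the stem-loop, grey those without, and filled points meet the CPM rule. HIST1H2BK is green by its RefSeq gene span only. Of the 7 filled points 6 are green, and HIST1H1C, at a mean of 5.39 CPM, is the grey one.

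The 7 genes lie in the histone clusters of chromosomes 6 and 1. Their GENCODE 44 positions on hg38 are chr6:26055740-26056470 on the minus strand for HIST1H1C, chr6:26124145-26139116 on the plus strand for HIST1H2AC and chr6:26158122-26171349 on the plus strand for HIST1H2BD. HIST1H2BJ spans chr6:27125897-27132795 and HIST1H2BK chr6:27146361-27146855, both on the minus strand. HIST2H2BE spans chr1:149884459-149886682 and HIST3H2A chr1:228434777-228457873, both on the minus strand. No exon of the 7 overlapped another annotated gene, apart from 27 bases that HIST1H2AC shares with an unnamed gene on the same strand.

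Of the 7 genes 5 start head to head with another histone gene, 230 to 251 bases away, and the partner stayed under the CPM rule each time. HIST1H2BK at 13.0 ± 0.106 CPM (Ctrl scramble, SD, n = 3) faces HIST1H2AH at 0.122 ± 0.150 CPM. HIST1H2AC at 1.90 ± 0.305 CPM faces HIST1H2BC at 0.860 ± 0.117 CPM, and the same pair stood at 3.95 ± 0.850 and 0.558 ± 0.200 CPM after recovery. In the same comparison HIST2H2BE went from 1.93 ± 0.496 to 3.85 ± 0.221 CPM, against 0.338 ± 0.0221 and 0.328 ± 0.184 CPM for its partner HIST2H2AC. HIST1H2AG, the partner of HIST1H2BJ, had a higher mean in HS+REC, 0.795 ± 0.131 CPM, than in Ctrl, 0.449 ± 0.0967 CPM, and HIST1H2AH stood at 0.202 ± 0.0663 CPM in HS+REC, within the spread of its Ctrl libraries. The partner counts are small, between 4 and 49 per library for HIST2H2AC and HIST1H2AG.

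The promoters of HIST1H2BD, with the largest heat effect, and of HIST1H1C, the gene that ends at its stem-loop, are given as the 250 bases before the RefSeq start (GRCh38.p14). Capitals mark matches on either strand to TATAAA (the TATA box) and CCAAT, motifs usual in histone promoters.
HIST1H2BD, chr6:26157871-26158120, plus strand: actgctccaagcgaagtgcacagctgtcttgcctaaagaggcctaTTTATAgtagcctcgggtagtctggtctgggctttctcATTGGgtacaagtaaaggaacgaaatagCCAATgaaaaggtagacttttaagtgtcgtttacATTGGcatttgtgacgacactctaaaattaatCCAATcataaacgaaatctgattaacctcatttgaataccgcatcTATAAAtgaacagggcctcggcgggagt
HIST1H1C, chr6:26056471-26056720, minus strand: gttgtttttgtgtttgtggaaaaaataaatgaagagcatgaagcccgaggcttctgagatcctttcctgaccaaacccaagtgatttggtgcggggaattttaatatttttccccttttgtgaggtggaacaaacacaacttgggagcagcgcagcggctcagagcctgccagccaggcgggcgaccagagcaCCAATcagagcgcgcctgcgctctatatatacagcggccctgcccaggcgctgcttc
CCAAT was present in 7 of 7 promoters, against 32.0% of all 35116 promoters of this length, and TATAAA in 5 of 7, against 10.7%. Of the promoters of the other histone rows, 58 were found, of which 48 held CCAAT and 38 held TATAAA. The octamer ATTTGCAT, the binding site of OCT1 in H2B promoters, was present in 4 of 7 and in 22 of the 58, against 1.63%. GAANNTTC, 2 inverted units of the heat shock element, was in 0 of 7 of these windows and in 4 of the 58, against 5.78% of all promoters, and extended by NNGAA it was in 0 of 7 and 0 of the 58, against 0.441%. A match here describes letters only, and its absence says nothing of binding by a heat shock factor.

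Total counts per library ranged from 30815860 to 47279297. LONP1, the target of the siRNA, fell in all 3 conditions, from 220.8 ± 5.56 to 20.4 ± 1.75 CPM at 37 °C (scramble and siLonp1, SD, n = 3), from 214.0 ± 15.7 to 11.7 ± 0.154 CPM under heat and from 218.4 ± 18.7 to 27.2 ± 1.64 CPM after recovery. Of 8 markers of colon epithelium, EPCAM, KRT8, KRT18, CDH1, CDX2 and VIL1 were above 9 CPM in all groups, whereas KRT20 and LGALS4 stayed under 1.3 CPM in all libraries. Of 4 markers of other cell types, PTPRC and COL1A2 were at or near 0 and PECAM1 stayed under 0.5 CPM. COL1A1, a collagen gene of fibroblasts, made up most of their sum. The sum ranged from 8.12 to 10.4 CPM over the Ctrl libraries, from 13.6 to 19.2 CPM over the HS libraries and from 29.7 to 35.0 CPM over the HS+REC libraries. This gradient had the same order as the summed level of the histone transcripts described here, an order that HIST3H2A and HIST1H1C did not follow. Its part in the results was not tested.

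All histone rows together took between 1412 and 2727 counts in a library. The 7 members held between 73.8% and 82.9% of these counts, and the H2B rows between 49.8% and 68.7%. Of the 66 rows under the rule, 12 had no count in any library, among them the pairs HIST2H2AA3 and HIST2H2AA4, HIST2H3A and HIST2H3C, and HIST2H4A and HIST2H4B, in each of which one canonical transcript contains the other in full, so that most reads cannot be assigned to one gene. For these rows a count of 0 cannot be read as no RNA. Just outside the rule, HIST1H2AG, HIST1H2BC and HIST1H1E were each over 1 CPM in 1 library, with highest values of 1.199, 1.04 and 1.02 CPM. Just inside it, HIST1H2BJ was over 1 CPM in 12 libraries, 1 of the 6 Ctrl libraries and 11 of the 12 heated ones. It thus owes its place to the heated groups, and its difference between heated and Ctrl libraries carries no weight as support. The other 6 members were over 1 CPM in all 18 libraries. Per kilobase of the exons that GENCODE gives each gene, Ctrl scramble libraries had 26.2 CPM for HIST1H2BK and 7.34 for HIST1H1C, and between 0.856 (HIST1H2BJ) and 2.02 (HIST1H2BD) for the other members. With the length of the canonical transcript alone HIST3H2A was at 7.09 CPM per kilobase, so that the order depends on which transcript was made. For HIST1H2BK GENCODE gives 495 bases by either length, while its RefSeq gene reaches further. The length used for HIST1H2BK may thus be too short.

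The first question was whether these transcripts changed with 1 h at 42 °C. Of the 6 members over 1 CPM in all libraries, heat raised 4 in both siRNA arms, the H2B genes HIST1H2BD, HIST2H2BE and HIST1H2BK and the H2A gene HIST1H2AC, and left HIST3H2A and HIST1H1C without a change past the test. HIST1H2BJ is kept out of these counts, since its heated libraries admitted it. A member counted as raised where edgeR's quasi-likelihood test, adjusted over all 12832 genes by Benjamini-Hochberg, gave an FDR no higher than 0.05. By this measure 18.6% of all genes tested were raised in HS scramble and 20.2% in HS siLonp1. After HS+REC the same 4 were raised in both arms, against 21.8% of all genes with scramble and 24.6% with siLonp1. With a fold change above 2 as well, 1 of the 6 passed in HS scramble and 3 in HS siLonp1 (2.94% and 3.42% of all genes), and 3 in each arm in HS+REC (3.78% and 4.51%). The count in HS+REC scramble rests on fold changes near that limit: it was 1 of the 6, HIST1H2BD, without Ctrl scramble replicate 3, without HS+REC scramble replicate 1, or with library size as the only scaling. In HS siLonp1 it was 2, with HIST1H2AC under the limit, with library size only, with the replicate number as a block, and without Ctrl siLonp1 replicate 3 or HS siLonp1 replicate 1 or 3. In HS scramble it was 2 without Ctrl scramble replicate 1, and the 4 raised members there became 2 without replicate 1 or 3 of Ctrl scramble or of HS scramble. In a fit restricted to genes over 1 CPM in all 18 libraries, the median log2 fold change over the 6 was 0.40 and 0.74 in HS and 0.81 and 0.90 in HS+REC (scramble and siLonp1). These comparisons share their Ctrl libraries, and a level is a share of all RNA counted. More cells that make an RNA, more of it per cell and less of the other RNA therefore cannot be told apart.

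HIST1H2BD showed the largest change. It had 1.44, 1.70 and 2.07 CPM in the Ctrl scramble libraries, 5.07, 5.35 and 5.37 CPM in HS scramble, and 6.69, 6.25 and 6.99 CPM in HS+REC scramble. With siLonp1 the values were 1.45, 1.85 and 1.74 CPM in Ctrl, 6.33, 6.10 and 6.87 CPM in HS, and 7.28, 7.83 and 7.26 CPM in HS+REC. All heated libraries lay above all Ctrl libraries, with no overlap in either arm. The log2 fold change in HS was 1.60 with scramble (standard error 0.12, adjusted p = 3e-10, edgeR, Benjamini-Hochberg adjustment) and 1.93 with siLonp1 (standard error 0.12, adjusted p = 7.5e-12, same test). In HS+REC it was 1.94 (95% interval 1.69 to 2.18) and 2.15 (1.90 to 2.40), a 3.83-fold and a 4.43-fold level.

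HIST2H2BE, which carries its poly(A) signal in the same exon, had the second largest change in HS in both arms and in HS+REC with siLonp1. Its Ctrl scramble libraries had 2.48, 1.51 and 1.80 CPM, HS scramble 3.11, 3.005 and 3.95 CPM, and HS+REC scramble 4.07, 3.85 and 3.62 CPM. With siLonp1 it had 1.91, 1.58 and 1.94 CPM in Ctrl, 4.04, 3.63 and 4.204 CPM in HS, and 4.90, 4.37 and 4.88 CPM in HS+REC. Heated and Ctrl libraries did not overlap in either arm. The log2 fold change was 0.79 in HS scramble (standard error 0.15, adjusted p = 0.00029, edgeR with Benjamini-Hochberg adjustment), 1.13 in HS siLonp1, 1.00 in HS+REC scramble and 1.38 in HS+REC siLonp1. The value in HS+REC scramble stood at the limit, at 2.002-fold.

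HIST1H2BK, the most abundant of the 7, changed least among those that rose. It was at 13.0, 13.1 and 12.9 CPM in Ctrl scramble, at 15.2, 14.6 and 15.1 CPM in HS scramble, and at 17.6, 20.1 and 20.4 CPM in HS+REC scramble. The siLonp1 libraries had 11.8, 11.5 and 12.9 CPM in Ctrl, 17.3, 15.6 and 15.9 CPM in HS, and 19.2, 17.04 and 19.6 CPM in HS+REC. The groups of an arm did not overlap between Ctrl and either heated state. The log2 fold change was 0.20 in HS scramble (95% interval 0.04 to 0.36, adjusted p = 0.045, edgeR with Benjamini-Hochberg adjustment), a call that was lost when any of 9 libraries was left out, namely each Ctrl scramble and HS scramble library, Ctrl siLonp1 replicate 1 and HS siLonp1 replicates 2 and 3 (adjusted p up to 0.12, edgeR, same adjustment). It was also lost with library size as the only scaling, with no filter on low counts and with the replicate number as a block (adjusted p = 0.076, 0.080 and 0.051, same test). In HS siLonp1 it was 0.43, and in HS+REC 0.58 and 0.63 with scramble and siLonp1.

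HIST1H2BJ, admitted by its heated libraries, had the lowest counts, between 28 and 105 in a library. The Ctrl libraries had 0.77 to 1.11 CPM with scramble and 0.69 to 0.84 CPM with siLonp1, the HS libraries 1.13 to 1.62 and 0.95 to 1.57 CPM, and the HS+REC libraries 1.95 to 2.44 and 1.70 to 2.40 CPM. The log2 fold changes, given as a description because this transcript was admitted through its heated libraries, were 0.64 and 0.71 in HS and 1.26 and 1.34 in HS+REC.

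Of the H2A genes, HIST1H2AC moved with the H2B genes. Its levels were 1.82, 2.23 and 1.63 CPM in Ctrl scramble, against 3.06, 2.21 and 3.13 CPM in HS scramble, and 4.79, 3.09 and 3.97 CPM in HS+REC scramble. With siLonp1 they were 1.83, 1.98 and 1.71 CPM in Ctrl, 3.88, 3.42 and 3.78 CPM in HS, and 4.21, 3.23 and 4.68 CPM in HS+REC. HS scramble overlapped Ctrl scramble through 1 library, whereas the other heated groups lay above Ctrl. The log2 fold change was 0.54 in HS scramble (standard error 0.18, adjusted p = 0.022, edgeR with Benjamini-Hochberg adjustment), and leaving out replicate 1 or 3 of either group raised the adjusted p to between 0.064 and 0.10. It was 1.00 in HS siLonp1 (2.005-fold), 1.05 in HS+REC scramble and 1.13 in HS+REC siLonp1.

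HIST3H2A, the H2A gene of the small cluster on chromosome 1, gave no change past the test. It had 3.36, 4.06 and 3.43 CPM in Ctrl scramble, against 2.73, 3.40 and 4.01 CPM in HS scramble, and 2.12, 2.77 and 3.84 CPM in HS+REC scramble. With siLonp1 the values were 3.38, 2.94 and 3.19 CPM in Ctrl, 4.66, 3.26 and 3.32 CPM in HS, and 4.59, 3.13 and 3.50 CPM in HS+REC. Heated and Ctrl libraries overlapped throughout. The 95% interval of its log2 fold change ran from -0.51 to 0.27 in HS scramble and from -0.15 to 0.64 in HS siLonp1, so that a doubling lies outside it. In HS+REC scramble it was -0.31, and -0.57 without HS+REC scramble replicate 3, which passed (adjusted p = 0.021, edgeR with Benjamini-Hochberg adjustment).

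HIST1H1C, the H1 gene without a longer annotated transcript, had 5.11, 6.33 and 4.66 CPM in Ctrl scramble, against 4.37, 4.04 and 4.55 CPM in HS scramble, and 4.62, 3.66 and 4.97 CPM in HS+REC scramble. With siLonp1 it had 6.67, 5.71 and 5.82 CPM in Ctrl, 6.82, 6.31 and 6.47 CPM in HS, and 6.78, 4.35 and 6.06 CPM in HS+REC. The 3 HS scramble libraries lay just under the 3 Ctrl scramble libraries. The log2 fold change of -0.32 there did not pass (95% interval -0.62 to -0.02, adjusted p = 0.089, edgeR with Benjamini-Hochberg adjustment), but did without Ctrl scramble replicate 3 or HS+REC siLonp1 replicate 2 (adjusted p = 0.050 and 0.047, same test). It was 0.11 in HS siLonp1 and -0.28 and -0.08 in HS+REC, where it passed as lowered with scramble if library size was the only scaling (-0.36, adjusted p = 0.038, edgeR).

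**Figure D2:**
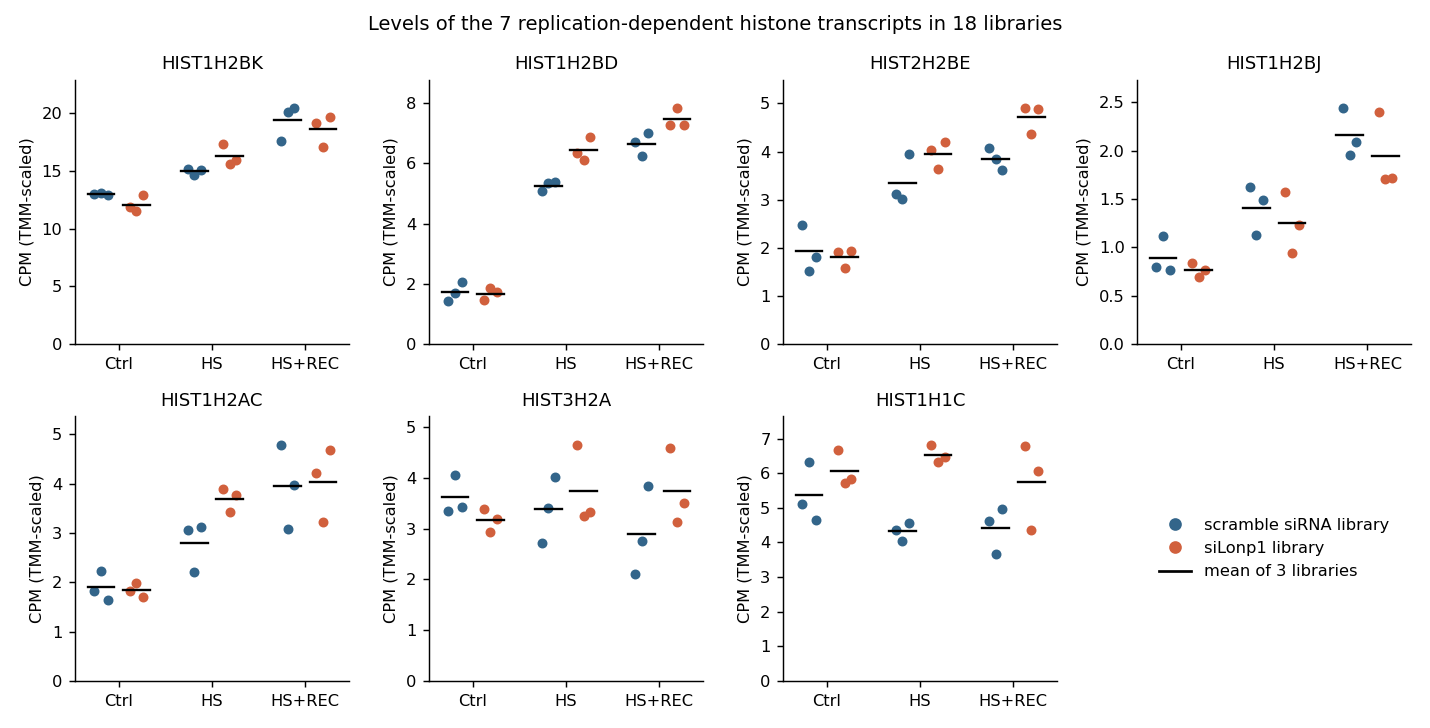
CPM of each of the 7 histone transcripts in every library, by condition (Ctrl, HS, HS+REC) and siRNA (blue scramble, orange siLonp1), with the mean of 3 libraries as a line; each panel has its own axis from 0. HIST1H2BD separates Ctrl (1.44 to 2.07 CPM) from all heated libraries (5.07 to 7.83 CPM), whereas HIST3H2A and HIST1H1C overlap across conditions in most comparisons.

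The hour of recovery was compared with the end of the heat. With scramble 3 of the 6 members over 1 CPM in all libraries were higher in HS+REC than in HS (14.2% of all genes were raised). These were HIST1H2AC by 0.51, HIST1H2BK by 0.38 and HIST1H2BD by 0.34 on the log2 scale. HIST1H2BK was the firmest of these (standard error 0.08, adjusted p = 0.00055, edgeR with Benjamini-Hochberg adjustment). With siLonp1 0 of the same 6 passed (16.3% of all genes were raised), and HIST1H2BK stood at 0.19 (adjusted p = 0.056, same test). HIST1H2BJ is kept out of both counts, since its heated libraries admitted it. It passed at 0.62 with scramble and at 0.64 with siLonp1, values that carry no weight as support. HIST1H2BK did pass with RLE size factors (adjusted p = 0.050, edgeR) and without HS siLonp1 replicate 1, HS+REC siLonp1 replicate 2, or HS+REC scramble replicate 1 or 3 (adjusted p from 0.018 to 0.050, edgeR). None exceeded a fold change of 2 in either arm by edgeR or DESeq2 (1.90% and 2.57% of all genes did so in either direction by edgeR), also not among members with an unadjusted p under 0.05. No member was lower in HS+REC than in HS past the test, with either siRNA. The estimates of 6 of the 7 were above 0 in each arm, the exceptions being HIST3H2A with scramble (-0.20) and HIST1H1C with siLonp1 (-0.19), while HIST1H1C with scramble (0.04) and HIST3H2A with siLonp1 (0.0011) were below 0 in some of the other fits. Without HS scramble replicate 2 or HS+REC scramble replicate 1, HIST1H2AC no longer passed with scramble, nor did HIST1H2BD without HS scramble replicate 1 or HS+REC scramble replicate 3. HIST1H2BJ lost its call with scramble when HS replicate 2 or HS+REC replicate 1 was left out, and with siLonp1 when HS replicate 2 or 3 or HS+REC replicate 1 was left out (adjusted p from 0.051 to 0.13, edgeR with Benjamini-Hochberg adjustment).

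The effect of siLonp1 was asked at each condition. At 37 °C 0 of 7 members changed past the test by edgeR or DESeq2, also 0 at an unadjusted p under 0.05, while 26.3% of all genes were raised and 22.9% lowered. The log2 fold changes ran from -0.24 (HIST1H2BJ) to 0.17 (HIST1H1C), and the 95% intervals of all 7 lay between -0.74 and 0.46. In HS 3 of 7 were higher with siLonp1, where 28.1% of all genes were raised. They were HIST1H1C by 0.60 (standard error 0.14, adjusted p = 0.0012, edgeR with Benjamini-Hochberg adjustment), HIST1H2AC by 0.41 (adjusted p = 0.045, same test) and HIST1H2BD by 0.29 (adjusted p = 0.022, same test). HIST1H2AC lost this call without any of 6 libraries (HS scramble replicate 2, HS siLonp1 replicates 1 and 3, replicate 1 of Ctrl scramble, Ctrl siLonp1 or HS+REC siLonp1), and HIST1H2BD without replicate 1 of HS scramble or replicate 3 of HS siLonp1. Scaling by library size alone took both calls away (adjusted p = 0.12 for each, edgeR), leaving HIST1H1C, while HIST2H2BE passed without HS scramble replicate 3 (0.36, adjusted p = 0.047, edgeR). In HS+REC 1 of 7 was higher, HIST1H1C by 0.37 (adjusted p = 0.032, same test), against 26.8% of all genes, and not without HS+REC scramble replicate 2 or HS+REC siLonp1 replicate 1 or 3, nor with library size alone or a fit on these 2 groups only (adjusted p = 0.076 and 0.089, edgeR). In that comparison HIST3H2A, at 0.36, passed without HS+REC scramble replicate 3 (0.62, adjusted p = 0.010, edgeR) and with no filter on low counts (adjusted p = 0.045, edgeR), and HIST2H2BE, at 0.30, without Ctrl scramble replicate 1 (adjusted p = 0.043, edgeR). A fold change above 2 was reached by 0 of 7 in Ctrl, HS or HS+REC with edgeR or DESeq2, where edgeR gave 4.17%, 4.17% and 4.18% of all genes.

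The difference between the arms in the heat effect was tested as an interaction. It passed for 0 of 7 members in HS and 0 of 7 in HS+REC by edgeR or DESeq2, against 1.87% and 1.58% of all genes by edgeR. At an unadjusted p under 0.05 edgeR gave 2 members in HS, HIST1H1C and HIST1H2BK, and 0 in HS+REC, and DESeq2 gave 1 in each. All 7 estimates in HS were above 0, from 0.07 (HIST1H2BJ) to 0.46 (HIST1H2AC), and the interval of HIST1H2AC ran from -0.07 to 0.99. That of HIST1H2BJ was below 0 when replicate 2 of Ctrl scramble, replicate 2 of HS scramble or the first siLonp1 library of HS was left out. The 3 siLonp1 libraries of HS and the 3 scramble libraries of HS enter every one of these estimates.

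**Figure D3:**
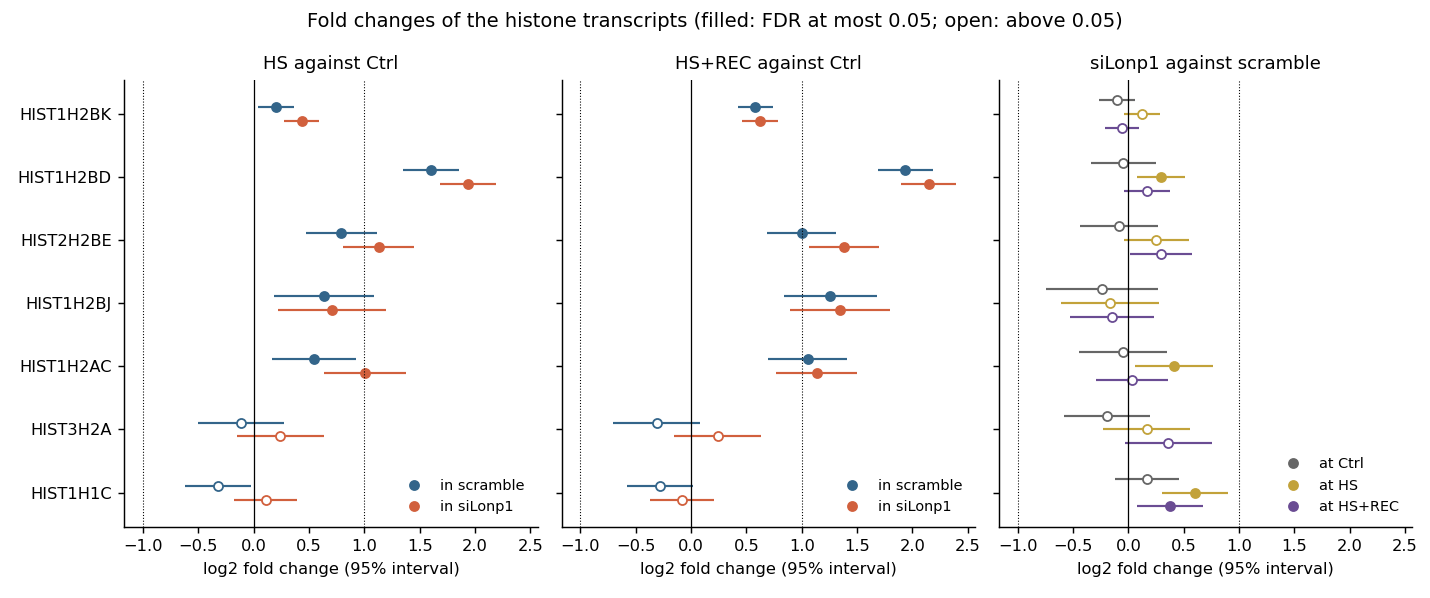
Log2 fold changes of the 7 histone transcripts with 95% intervals for HS against Ctrl, HS+REC against Ctrl (blue scramble, orange siLonp1) and siLonp1 against scramble at each condition; filled points have an FDR of at most 0.05 and dotted lines mark a 2-fold change. HIST1H2BD is farthest right in both heat panels (1.60 to 2.15), while in the siLonp1 panel the largest value is 0.60 for HIST1H1C in HS.

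Levels summed over all members and over the rows under the rule were set beside RNAs that are known to lack a poly(A) tail. With scramble the 7 members summed to 28.4 ± 1.46, 35.5 ± 1.92 and 43.3 ± 2.26 CPM over the conditions Ctrl, HS and HS+REC, and to 27.4 ± 1.01, 41.9 ± 2.65 and 46.2 ± 4.07 CPM with siLonp1 (SD, n = 3). The 66 rows under the rule summed to 8.77 ± 1.70, 9.39 ± 0.884 and 10.6 ± 1.51 CPM with scramble and to 9.36 ± 0.663, 12.8 ± 2.37 and 10.8 ± 1.84 CPM with siLonp1. All 15 H4 rows together had 1.46 ± 0.591, 1.53 ± 0.294 and 2.11 ± 0.372 CPM with scramble, and 1.57 ± 0.123, 2.81 ± 0.570 and 2.08 ± 0.218 CPM with siLonp1, and all 14 H3 rows had 2.74 ± 0.479 CPM in HS siLonp1 and between 1.34 and 2.37 CPM elsewhere. The mean H4 and H3 sums were thus highest in HS siLonp1, though its libraries (2.34 to 3.45 CPM for H4 and 2.29 to 3.24 CPM for H3) overlapped those of other groups, up to 2.54 CPM for H4 and 3.05 CPM for H3.

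The 10 RNAs without a tail, among them RN7SK (a regulator of transcription elongation), RMRP and RPPH1 (the RNAs of RNase MRP and RNase P) and RN7SL1 and RN7SL2 (the signal recognition particle RNA), had 9.79 ± 4.92, 13.0 ± 3.15 and 14.7 ± 6.22 CPM in Ctrl, HS and HS+REC with scramble. With siLonp1 they had 15.6 ± 0.635, 39.4 ± 16.5 and 16.7 ± 2.21 CPM. The 3 HS siLonp1 libraries, from 29.4 to 58.4 CPM, lay above the other 15, of which the highest had 21.8 CPM. Of the 5 such RNAs that passed the CPM rule, 5 were more than 2-fold higher with siLonp1 in HS, by 1.31 (RN7SK) to 2.18 (RPPH1) on the log2 scale, where 4.17% of all genes passed that limit in either direction. The same group held the highest mean of HIST1H1C (6.53 CPM) and of the H3 and H4 sums. In HS+REC siLonp1 the RNAs without a tail were at 16.7 CPM, while HIST1H2BD, HIST2H2BE, HIST1H2BK, HIST1H2BJ and HIST1H2AC had means above those of HS siLonp1. The part of RNA without a tail in the differences between siLonp1 and scramble in HS was not tested.

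**Figure D4:**
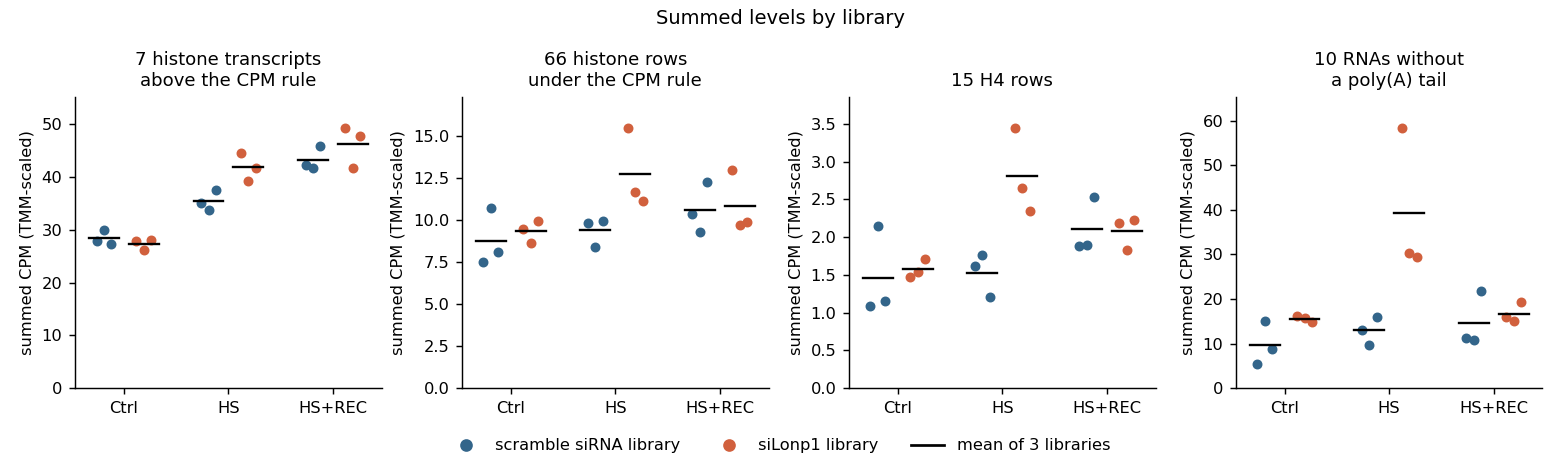
Summed CPM per library of the 7 histone transcripts, the 66 histone rows under the CPM rule, the 15 H4 rows and 10 RNAs without a poly(A) tail, by condition and siRNA, with the mean of 3 libraries as a line. The members step up from Ctrl (26.2 to 30.1 CPM) to HS+REC (41.7 to 49.4 CPM) in both arms, whereas the H4 rows and the RNAs without a tail have their highest means in HS siLonp1.

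In a fit without a filter on low counts, 54 rows under the rule had a count and were tested. Raised at an FDR of at most 0.05 were 1 in HS scramble, 4 in HS siLonp1, 5 in HS+REC scramble and 4 in HS+REC siLonp1, where 12.7%, 13.8%, 15.3% and 16.7% of all 20745 genes were raised. HIST1H2BG, HIST1H4H and HIST1H2AG were raised in HS+REC in both arms, HIST1H2AG by 0.81 and 1.33 on the log2 scale. For siLonp1 in HS 6 of the 54 were raised (19.0% of all genes), namely HIST1H3C, HIST1H3J, HIST1H4D, HIST1H4E, HIST1H2AH and HIST1H2BH. HIST1H4D, at 2.45, and HIST1H4E, at 1.55 on the log2 scale, had the largest values, and neither has a transcript past its stem-loop. Lowered were HIST1H3A in HS+REC siLonp1 (0 to 1 counts a library, against 4 to 9 in Ctrl, with 17.3% of all genes lowered), HIST1H3A, HIST1H1E, HIST1H4D and HIST1H4E in HS+REC against HS with siLonp1 (11% of all genes, 2288 of 20745), and HIST1H2BC in Ctrl siLonp1 against Ctrl scramble (log2 fold change -0.87, with 13.9% of all genes lowered). Raised were HIST1H2AG in HS+REC against HS with siLonp1 (by 0.68, with 10.4% of all genes raised) and HIST1H2BH with siLonp1 in HS+REC (by 0.98, with 17.7%). These are rows of few counts, named here after their values were seen.

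The genes that make and regulate histone mRNA were measured in the same libraries. Of 25 genes of histone 3′ end processing, 3 rose and 9 fell in HS scramble and 2 rose and 9 fell in HS siLonp1, with medians of -0.07 and -0.06 on the log2 scale. Lowered were 17.3% and 22.1% of all genes. In HS+REC 8 rose and 2 fell with scramble and 6 rose and 4 fell with siLonp1, where 21.8% and 24.6% of all genes were raised and 20.5% and 26.6% lowered. ZNF473, the zinc finger protein of the U7 snRNP (also known as ZFP100), stood apart from the list. It had 38.1, 40.1 and 36.9 CPM in Ctrl scramble, against 111.1, 111.6 and 115.0 CPM in HS scramble and 143.4, 156.2 and 149.5 CPM in HS+REC scramble. The siLonp1 libraries were at 31.4 to 33.7 CPM in Ctrl, 121.0 to 122.7 CPM in HS and 122.7 to 152.7 CPM in HS+REC, so that no heated library of either arm came near a Ctrl library. Its log2 fold change was 1.55 in HS scramble (standard error 0.07, adjusted p = 9.2e-15, edgeR with Benjamini-Hochberg adjustment) and 1.90, 1.96 and 2.08 in HS siLonp1, HS+REC scramble and HS+REC siLonp1. CSTF3 and WDR33, shared with the general cleavage machinery, fell in HS scramble by 0.44 and 0.40 on the log2 scale.

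SLBP, which binds the stem-loop, was at 128.5 ± 3.24 CPM in Ctrl scramble (SD, n = 3). Its log2 fold change was -0.07 in HS scramble, -0.29 in HS siLonp1, 0.37 in HS+REC scramble and 0.09 in HS+REC siLonp1, of which the second and the third passed (adjusted p = 0.00038 and 2.2e-05, edgeR with Benjamini-Hochberg adjustment). LSM11 of the U7 snRNP fell in all 4 comparisons with Ctrl, by 0.30 and 0.55 in HS and by 0.59 and 0.76 in HS+REC, and its partner LSM10 did not pass in any of the 4. NPAT, the coactivator of histone gene transcription, fell in HS by 0.31 and 0.73 and in HS+REC by 0.58 and 0.60. CASP8AP2 (also known as FLASH), which joins histone transcription and processing, fell in HS by 0.32 and 0.73 and in HS+REC siLonp1 by 0.28, while its -0.12 in HS+REC scramble did not pass. Of the 10 genes of histone transcription 3 rose and 4 fell in HS scramble and 3 rose and 6 fell in HS siLonp1, where 18.6% and 20.2% of all genes were raised and 17.3% and 22.1% lowered. CCNE2 and CCNE1, the E cyclins that activate NPAT, fell in HS scramble by 0.94 and 0.36, and HINFP, the activator of H4 genes, rose by 0.39.

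**Figure D5:**
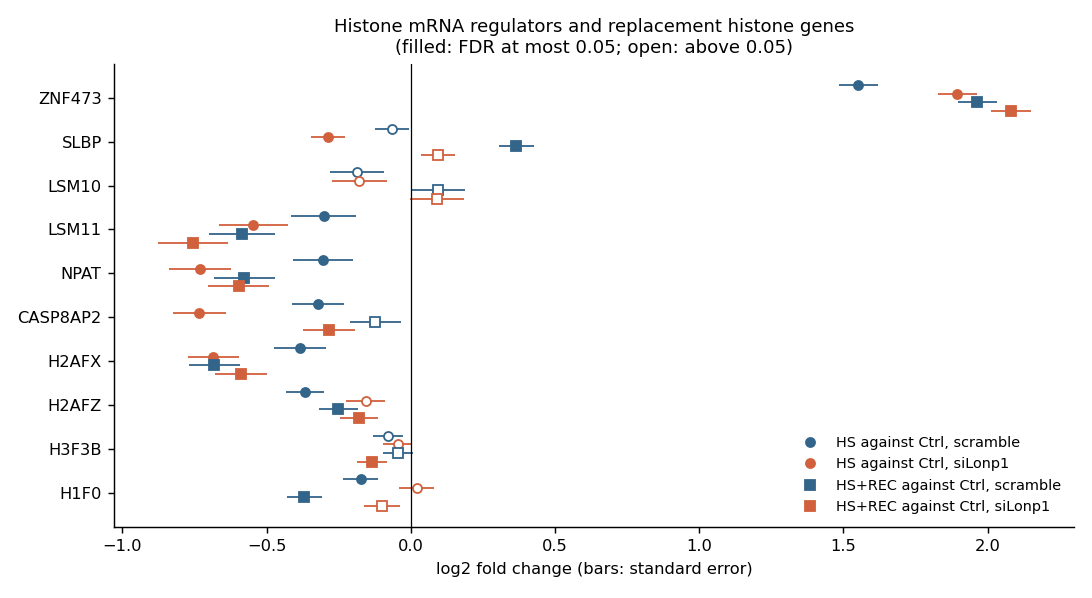
Log2 fold changes (bars: standard error) of histone mRNA regulators and replacement histone genes in HS (circles) and HS+REC (squares) against Ctrl, with scramble (blue) or siLonp1 (orange); filled points have an FDR of at most 0.05. ZNF473 lies between 1.55 and 2.08, and all other genes shown lie between -0.76 and 0.37.

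The replication-independent histone genes, most of whose mRNAs carry poly(A) tails throughout the cell cycle, were measured beside the 7 members. Of 14 listed genes 10 were tested, of which 0 rose and 4 fell in HS scramble, 1 rose and 2 fell in HS siLonp1, 0 rose and 6 fell in HS+REC scramble, and 0 rose and 3 fell in HS+REC siLonp1. Of all genes 17.3%, 22.1%, 20.5% and 26.6% were lowered in these comparisons. H2AFX, a variant of DNA repair whose mRNA exists in a stem-loop and a polyadenylated form, was at 220.0 ± 8.38, 168.5 ± 14.2 and 137.2 ± 22.7 CPM in Ctrl, HS and HS+REC with scramble, and fell by 0.38 and 0.68 on the log2 scale (adjusted p = 0.0017 and 1.5e-06, edgeR with Benjamini-Hochberg adjustment). H2AFZ fell in HS scramble by 0.37, and H1F0, a linker histone of resting cells, by 0.17. H3F3B, one of the H3.3 genes, was at 1087 ± 23 CPM in Ctrl scramble and moved by -0.08 in HS scramble without passing. The other H3.3 gene, H3F3A, had 1 count over all 18 libraries, so that the table holds no measure of it.

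Genes of the cell cycle give the setting in which histone mRNA is normally made. Of 30 S phase genes 0 rose and 9 fell in HS scramble, 0 rose and 20 fell in HS siLonp1, 2 rose and 12 fell in HS+REC scramble and 1 rose and 20 fell in HS+REC siLonp1. The medians were -0.08, -0.25, -0.10 and -0.24 on the log2 scale. With siLonp1 against scramble 3 S phase genes were higher and 17 lower at 37 °C, 0 and 24 under heat, and 1 and 22 after recovery. Of all genes 26.3%, 28.1% and 26.8% were raised and 22.9%, 26.7% and 27.3% lowered. GINS1, a subunit of the replicative helicase, fell by 0.41 in HS scramble. Of 6 inhibitors and stress regulators of the cycle 5 rose in HS scramble, 3 in HS siLonp1, 3 in HS+REC scramble and 5 in HS+REC siLonp1 (18.6%, 20.2%, 21.8% and 24.6% of all genes), in HS scramble among them CDKN1A by 1.67, GADD45A by 1.05 and CDKN1B by 0.93. Of 24 genes of mitosis 2 rose and 7 fell in HS scramble, TTK by 0.53 among the latter, and 3 and 7 in HS siLonp1, 1 and 10 in HS+REC scramble and 2 and 14 in HS+REC siLonp1 did so, where 17.3%, 22.1%, 20.5% and 26.6% of all genes were lowered.

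Of 11 genes of the poly(A) machinery 1 rose and 3 fell in HS scramble and 0 rose and 4 fell in HS siLonp1, while 4 rose and 2 fell, and 6 rose and 1 fell, in HS+REC. RBBP6 and PCF11, which take part in cleavage of the pre-mRNA, fell in HS scramble by 0.56 and 0.47. Of 10 tested genes of histone mRNA decay 0 rose and 0 fell in HS scramble, and 3 rose and 3 fell in HS siLonp1. In HS+REC 4 rose and 1 fell with scramble, and 4 rose and 2 fell with siLonp1. Of 18 histone chaperones 1 rose and 4 fell in HS scramble and 1 rose and 8 fell in HS siLonp1. In HS+REC 0 rose and 7 fell with scramble, and 2 rose and 9 fell with siLonp1. Beside these counts stand 18.6% of all genes raised and 17.3% lowered in HS scramble, 20.2% and 22.1% in HS siLonp1, 21.8% and 20.5% in HS+REC scramble, and 24.6% and 26.6% in HS+REC siLonp1. The medians of these 3 lists stayed between -0.17 and 0.17 in the comparisons of HS and HS+REC with Ctrl, whereas that of the 6 histone transcripts over 1 CPM in all libraries lay between 0.37 and 0.88 in the same fit. These lists share some genes, and no difference between a list and the members was tested.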

How the data were processed

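The 18 RNAseq libraries of SW620 cells fall, by their sample titles, into 6 groups of 3. The authors extracted RNA and, by their methods, prepared stranded libraries with an mRNA kit. They aligned the paired ends to hg38 with STAR 2.7.3a and counted reads on UCSC genes with featureCounts. The deposited values are these raw counts, with no normalization. The strand setting, the handling of reads shared by several genes and the annotation release are not given in the sources used here. Without the strand setting, overlapping and antisense transcripts cannot be told apart, and near-identical histone genes can lose shared reads.

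Genes that exceeded 1 CPM in 3 or more libraries were scaled by TMM and tested with edgeR 4.0.16 in R 4.3.3 (quasi-likelihood test, 1 mean per group over all 18 libraries, prior count 0.125). Levels are CPM on the TMM-scaled library size, and the rule on members used unscaled CPM. A gene passed where its FDR (Benjamini-Hochberg) did not exceed 0.05, and was called above 2-fold where stated. Intervals are 95% intervals from the t distribution with edgeR's degrees of freedom. The fits were tested on simulated counts. Depth, from 30815860 to 47279297 counts, limits the precision of low rows, and the sources used here name no removal of PCR duplicates, so that counting error is a lower limit. No replicate was a copy of another, since the chi-square per degree of freedom between replicates was at least 3.48.

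Older histone symbols were matched to RefSeq synonyms (73 of 73), to GENCODE 44 models and to RefSeq promoters of GRCh38.p14. Genes named are the 2 most abundant members per histone type, the largest changes per contrast, a fixed set of histone regulators and up to 3 genes per list with the largest change in HS scramble or in siLonp1 at 37 °C. The members, lists and tests were chosen with earlier results of these data known. Alternatives were RLE factors, library size only, no filter or a filter on all 18 libraries, DESeq2 1.42.0, a fit on only the groups of a contrast, a block on replicate number, an FDR limit of 0.01, calls with any fold and each library left out in turn.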

Additional observations from a re-analysis of the deposited data

Results flagged for a closer look

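LONP1 stood out among the genes always named, since the effect of siLonp1 on it differed between conditions. The effect was larger in HS than in Ctrl by -0.76 on the log2 scale (adjusted p = 0.00047 for the interaction, edgeR, Benjamini-Hochberg adjustment) and smaller in HS+REC than in Ctrl by 0.43 (adjusted p = 0.032, same test). The level with siLonp1 was lower than with scramble in all 3 libraries of each condition. Among the listed genes of the cell cycle and of mRNA ends, such a difference also passed in HS for CDT1 (-0.68), UHRF1 (-0.46), POLD3 (-0.44), CDC6 (-0.36), FEN1 (-0.32), PABPC4 (-0.34) and CKS2 (0.45), and in HS+REC for CPSF4 (-0.39) and MCM4 (-0.31). None of the 7 histone transcripts had such a difference by edgeR or DESeq2, with 2 of them at an unadjusted p under 0.05 in HS and 0 in HS+REC by edgeR, and 1 in each by DESeq2.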

How the results depend on the processing

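Of 1990 alternative values for single transcripts 1920 stayed on the same side of the threshold, 57 no longer passed and 13 newly passed. The sign changed in 32 of the 1920, none of which passed, nor did the reported value (14 estimates, each within 0.16 of 0 on the log2 scale as reported). No value that passed changed sign. The counts and medians here cover all 7 members, HIST1H2BJ included, which its heated libraries admitted, unless the 6 over 1 CPM in all libraries are named. The number of histone transcripts past a 2-fold change depends on that limit, and without it 5 passed in HS with scramble, 5 in HS with siLonp1, 4 and 1 in HS+REC against HS (scramble and siLonp1), and 3 and 1 for siLonp1 in HS and in HS+REC. Scaling by library size alone left 2 past it in HS+REC with scramble, HIST1H2BD and HIST1H2BJ, thus 1 of the 6. With a filter of 1 CPM in all 18 libraries, which drops HIST1H2BJ, the median log2 fold change was 0.40 in HS with scramble, and 0.81 and 0.90 in HS+REC with scramble and siLonp1. Leaving out each library in turn gave 1 to 2 calls and a median of 0.45 to 0.70 in HS with scramble (2 calls without Ctrl scramble replicate 1), and a median of 0.51 to 0.87 in HS with siLonp1. It gave 2 to 4 calls and a median of 0.84 to 1.04 in HS+REC with scramble (2 calls, 1 of the 6, without Ctrl scramble replicate 3 or HS+REC scramble replicate 1). Over the 6 alone the left-out fits gave medians of 0.32 to 0.46 and 0.68 to 0.76 in HS, and 0.71 to 0.80 and 0.80 to 0.98 in HS+REC (scramble and siLonp1), with 1 to 2, 2 to 3, 1 to 3 and 3 calls. The median interaction in HS+REC ranged from 0.052 (without HS+REC siLonp1 replicate 1) to 0.25, and was 0.061 without Ctrl scramble replicate 2. The cause of these shifts was not tested, apart from the dropped transcript.

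Equal replicate numbers did not pair the samples: over 45 pairs of same-numbered libraries the correlation of deviations from the group means had a median of -0.022, and 10 pairs exceeded 0.1. Pairs of different numbers had a median of 0.022. Single ones lay far from it, such as HS+REC scramble replicate 3 with HS+REC siLonp1 replicate 1 (0.56) and replicate 2 (-0.41). A batch shared across different numbers was not tested. A fit with the replicate number as a block gave 1, 2, 4 and 4 calls in the comparisons with Ctrl (HS scramble, HS siLonp1, HS+REC scramble, HS+REC siLonp1), which is 1, 2, 3 and 3 of the 6, against 424, 585, 571 and 736 of all 12832 genes tested. HIST1H2BK in HS with scramble had an adjusted p of 0.051 there (edgeR). Depth limits the rows under 1 CPM, whose counts are too few for firm statements on single genes.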
